A study of Mus musculus with 11 samples.

Results

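RNA held on tagged ribosomes was compared between yoked control mice and mice that self-administered saline, in 3 immunopurified libraries of each group out of the 11 libraries of the series. All 32531 genes of the count files entered by this rule, of which 16417 had enough counts to test, 8959 had no count in any immunopurified library and 7155 had counts too low to test. All animals were adult mice of the Glt25d2-EGFP/Rpl10a line DU9, in which regulatory DNA of Glt25d2 (current symbol Colgalt2) drives an EGFP-tagged ribosomal protein L10a. The saline group took intravenous saline by its own responses under short access, and the yoked group is given only as yoked control. Neither labels nor design text state what the yoked mice received, their sex or exact age, or whether a replicate was 1 animal or a pool. The 3 immunopurified libraries from mice that self-administered cocaine entered the fit as a further group. They shared its filter, scaling and estimates of spread and of the replicate block. Some of their contrasts are given beside the yoked values, whereas the input and unbound libraries stayed out.

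Translating ribosome affinity purification (TRAP) uses antibodies against EGFP to pull down the tagged ribosomes of one cell type with the RNA they carry, so that its translated messages can be sequenced from whole tissue. Colgalt2 marks pyramidal tract neurons of cortical layer 5, the large output neurons whose axons reach the brainstem and spinal cord and give branches to the striatum. In a yoked design an animal receives infusions when its partner earns them, so that receipt is separated from response. Immediate early genes are switched on within minutes of neuronal firing through calcium, cyclic AMP and the transcription factors CREB and SRF, without new protein synthesis, and many of their products are themselves transcription factors. They are widely used to mark recently active neurons and are known to respond to cocaine in striatum and cortex.

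Gene counts ran from 37812193 to 53862653 per library in saline and from 33664271 to 38343099 in yoked. The libraries separated first by replicate number and not by group. The first principal component held 66.6% of the variance, with the libraries numbered 1 at 76.3 (saline) and 60.7 (yoked) and those numbered 2 or 3 between −55.8 and −36.9. Deviations from the group mean correlated across genes at r = 0.79, 0.56 and 0.48 for saline and yoked libraries of the same number. Saline 2 with yoked 3 (r = 0.52) and saline 3 with yoked 2 (r = 0.46) correlated about as much, whereas number 1 with either other number gave r from −0.67 to −0.59. The correlations thus set number 1 apart but do not tell pairs 2 and 3 from each other, and the number was kept in the fit as a block. The saline libraries ran on lane 6 and the yoked libraries on lane 3, so group and lane cannot be told apart for any value below. The tissue label is cerebral cortex, although the extraction text names whole striatum. The cortical transcription factor gene Tbr1 was at 216 to 271 CPM (TMM-scaled counts relative to library size) over the 6 libraries, while the striatal genes Adora2a and Rgs9 were at 1.59 to 6.8 and 14.1 to 117 CPM. Arpp21, a gene of the same striatal list and its member of highest level, was at 571 to 651 CPM. The 17 striatal genes summed to 1266 to 1775 CPM, and the 12 layer 6 genes that include Tbr1 to 609 to 719.6 CPM. The lists differ in size and Arpp21 alone holds much of the striatal sum, so these sums do not measure shares of tissue.

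Colgalt2 itself, a collagen galactosyltransferase gene (chromosome 1, 152399830 to 152510695, plus strand, mm10), was at 137, 85.5 and 104 CPM in saline and 151, 77.5 and 90.9 CPM in yoked, in the order of replicates 1, 2 and 3 used throughout. It was highest in the library numbered 1 of each group, and the groups overlapped. Its log2 fold change, yoked over saline, was −0.06 ± 0.12 (standard error, SE).

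No gene passed an adjusted p of 0.05 in the fit to the 9 immunopurified libraries with replicate number as a block, neither higher in yoked (0 of 16417, 0%) nor lower (0 of 16417, 0%). The smallest adjusted p in edgeR's quasi-likelihood test was 0.9996, and DESeq2 on the same genes also called 0, with a smallest adjusted p of 0.1143. At an unadjusted p under 0.05 edgeR had 298 genes higher (1.82%) and 195 lower (1.19%), 493 in all, and DESeq2 had 494. The median log2 fold change of all genes tested was 0.01, with 8406 genes above and 8011 below saline. Among 10443 genes of at least 5 CPM the median absolute log2 fold change was 0.09 and the median SE 0.14, and 18 genes differed by more than 1.5-fold. Yoked exceeded saline within all 3 numbered pairs for 2608 genes (15.9%) and was below it in all 3 for 2234 (13.6%). These shares are the background for the counts of list members that follow, since members of a list vary together between libraries and their counts are descriptions, not tests. Since no label says that replicates were separate animals, every p measures only the spread between these libraries.

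When only the 6 yoked and saline libraries were fitted, with the same block and 2 residual degrees of freedom, edgeR called 4 of 16002 genes higher (0.025%) and 1 lower (0.00625%). The noncoding RNA Meg3 rose by 0.48 ± 0.07 (log2, SE, adjusted p = 0.01836). The immediate early genes Nr4a1 (0.56 ± 0.10) and Arc (0.54 ± 0.10) and the astrocyte receptor gene Gpr37l1 (0.76 ± 0.13) rose, and Cox17, which encodes a copper chaperone for cytochrome c oxidase, fell by 0.47 ± 0.08, each with an adjusted p of 0.04537. In that smaller fit none of the 5 passed when either library numbered 1, or both, were left out, with adjusted p from 0.1048 to 0.9988. Nr4a1, Arc and Cox17 also missed the threshold without either or both libraries numbered 2 (adjusted p from 0.09617 to 0.1876), and all 5 passed without those numbered 3. Leaving a library out leaves 1 residual degree of freedom, and the number of calls then ranged from 0 to 89 higher and from 1 to 239 lower.

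Among immediate early genes, 32 of the 34 listed symbols were tested, and 23 of them were above saline and 9 below, with none passing the adjusted threshold in the 9-library fit. Their median log2 fold change was 0.12, and the medians within pairs 1, 2 and 3 were 0.09, 0.14 and 0.15. The median was 0.08 without yoked replicate 2 and 0.22 without yoked replicate 3. Yoked was above saline in all 3 pairs for 14 of the 32, against 15.9% of all genes, and below in all 3 for 2. At an unadjusted p under 0.05 were 6 higher and 1 lower. Against the same saline libraries, cocaine self-administration gave a list median of 0.11, with 0.42 for Nr4a1 and 0.45 for Arc.

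Nr4a1 encodes the orphan nuclear receptor Nur77 (chromosome 15, 101254269 to 101274795, plus strand). It was at 46.5, 52.6 and 33.8 CPM in saline and 60.2, 86.8 and 51.2 CPM in yoked. Yoked was the higher library in each pair, although the top saline library lay just above the lowest yoked one, and the 9-library fit gave 0.57 ± 0.13 (log2, SE), a 1.48-fold level. Arc, whose product drives endocytosis of AMPA receptors at active synapses (chromosome 15, 74669083 to 74672570, minus strand), was at 41.8, 55.3 and 29.8 CPM in saline and 57.7, 91.9 and 39.7 CPM in yoked. Pair 2 held the highest Arc level of both groups and pair 3 the lowest, so the groups overlapped while every pair had yoked on top. The log2 fold change of Arc was 0.54 ± 0.13 (SE), or 1.46-fold.

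Egr2, a zinc finger transcription factor of the early growth response family (chromosome 10, 67535475 to 67542188, plus strand), was at 7.53, 16.6 and 4.91 CPM in saline and 10.8, 26.2 and 8.2 CPM in yoked, with a log2 fold change of 0.62 ± 0.25 (SE). Trib1, a pseudokinase gene that is induced by growth signals, was at 31.2, 32.8 and 25.6 CPM in saline and 33.4, 43.4 and 36.9 CPM in yoked. All 3 yoked libraries of Trib1 were above all 3 saline libraries, and its log2 fold change was 0.34 ± 0.13 (SE). The best known members did not all lean this way. Fos, a subunit of the AP-1 transcription factor, was at 12.3, 18.6 and 6.68 CPM in saline and 15.6, 25.9 and 8.05 CPM in yoked, higher in yoked in each pair with a log2 fold change of 0.38 ± 0.21 (SE). Npas4, a transcription factor induced by calcium entry, was at 6.61, 12 and 6.58 CPM in saline and 6.93, 7.98 and 4.01 CPM in yoked, lower in yoked in pairs 2 and 3 and near equal in pair 1, at −0.40 ± 0.19 (SE). Egr1, a further zinc finger factor of the Egr family, was at 574, 826 and 515 CPM in saline and 582, 766 and 555 CPM in yoked, mixed between pairs, with a log2 fold change of 0.00 ± 0.16 (SE). Cox17, Fos and Npas4 were chosen after their values were seen.

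**Figure D1:**
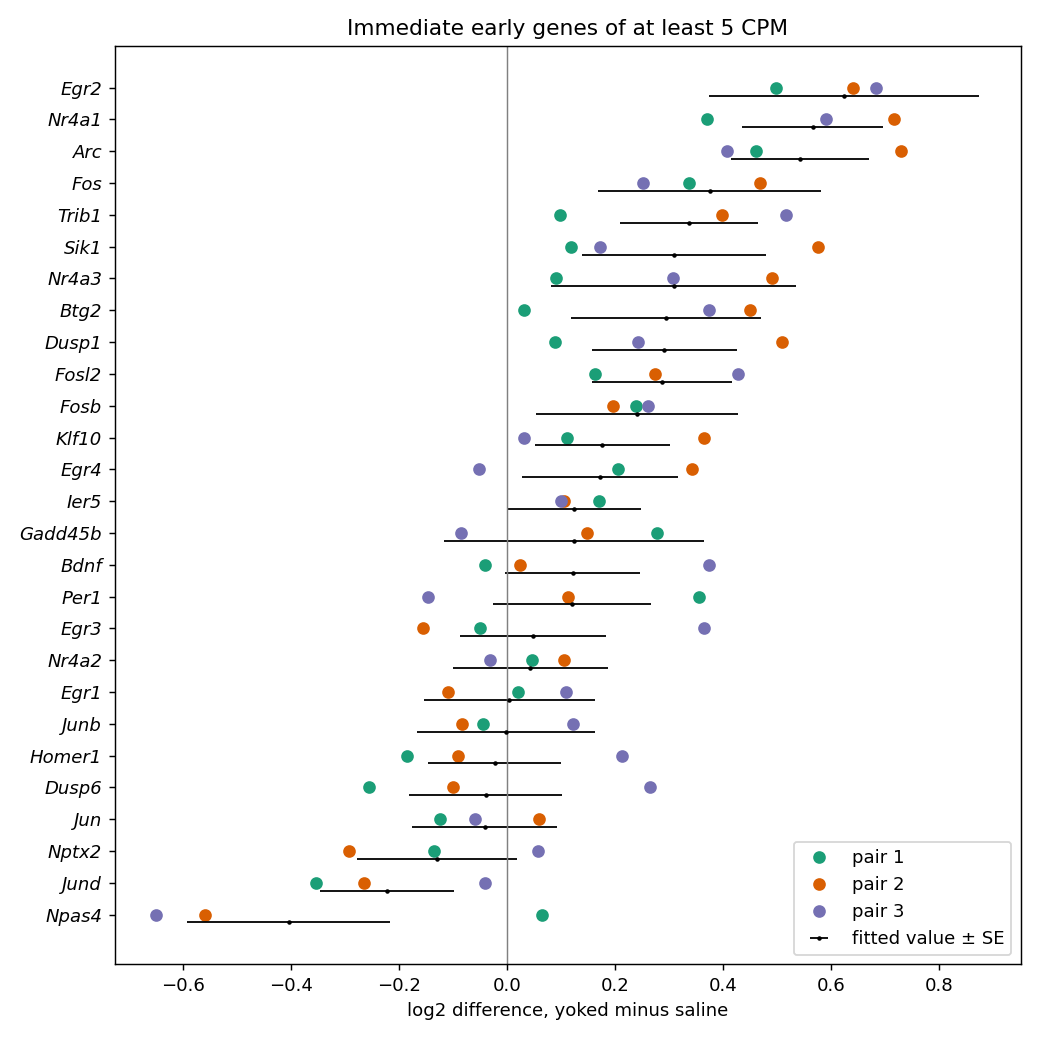
Log2 difference, yoked minus saline, of the 27 immediate early genes of at least 5 CPM (vertical axis, by fitted value): coloured points are the 3 numbered pairs (CPM with 0.5 added) and black bars the fitted value ± SE. For 13 of the 27 genes, Egr2, Nr4a1, Arc, Fos and Trib1 among them, all 3 points lie right of 0, while Npas4 lies lowest.

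The sequences upstream of Nr4a1 and Egr2 are shown because both genes were above saline in every pair and are textbook targets of CREB and SRF. Each run is the 250 bases before the RefSeq start on the plus strand of GRCm38.p6, 5′ to 3′, chr15:101266596-101266845 for Nr4a1 and chr10:67537619-67537868 for Egr2. Both lie inside the span of the GENCODE gene, whose longest models start further upstream. Capitals mark the cyclic AMP response element half-site TGACG or its reverse complement CGTCA and, in Egr2, the serum response element known as the CArG box.
Nr4a1: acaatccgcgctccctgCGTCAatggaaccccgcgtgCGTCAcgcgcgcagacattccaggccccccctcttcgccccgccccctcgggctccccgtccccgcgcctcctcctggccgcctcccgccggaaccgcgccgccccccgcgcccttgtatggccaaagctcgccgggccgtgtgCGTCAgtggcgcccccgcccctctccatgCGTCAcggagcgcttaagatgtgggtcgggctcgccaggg
Egr2: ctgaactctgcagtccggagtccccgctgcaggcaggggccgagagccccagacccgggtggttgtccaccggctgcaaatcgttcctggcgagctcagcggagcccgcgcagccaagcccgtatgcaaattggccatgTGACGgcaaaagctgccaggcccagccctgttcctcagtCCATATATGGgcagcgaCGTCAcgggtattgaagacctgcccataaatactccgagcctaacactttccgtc

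The Nr4a1 window holds 4 half-sites and no CArG box, and the Egr2 window, which has the most matches of the 5 RefSeq windows of that gene, holds 2 half-sites and 1 CArG box. Of the 23 tested early genes with an entry in the RefSeq table, 17 had a TGACG or CGTCA in the 250 bases of at least 1 window, compared with 5347 of 27025 genes (19.8%). The full palindrome TGACGTCA was in 2 of the 23 and in 1.77% of all genes, and a CArG box in 1 of the 23 and in 1.62% of all genes. Both strands were searched, and a palindrome also counts as a half-site. The 27025 genes are all symbols of the RefSeq table, whether or not they were tested here. Genes with more windows have more chances of a match, so the shares are not like for like. A match is a run of letters and was not tested as a binding site, and the count bears on the composition of the list and not on the difference between groups.

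Layer 5 pyramidal tract genes, the markers of the tagged cell type, were all below saline. Of 20 members 0 were above and 20 below, 12 of them in all 3 pairs against 13.6% of all genes. The median log2 fold change was −0.13, with pair medians of −0.20, −0.12 and −0.16, and single members ran from −0.41 to −0.03. None passed the adjusted threshold, and 3 had an unadjusted p under 0.05. The summed level of the 20 genes was 3217, 1764 and 1915 CPM in saline and 2927, 1557 and 1803 CPM in yoked, lower in yoked within each pair.

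Pou3f1, a POU-domain transcription factor gene (chromosome 4, 124656807 to 124660655, plus strand), was at 90.3, 40.9 and 45.2 CPM in saline and 62.4, 33 and 35.4 CPM in yoked. Each pair had the yoked library lower, by −0.40 ± 0.12 (log2, SE), although the library numbered 1 was far above the others in both groups. Bcl11b encodes CTIP2, which directs the growth of corticospinal axons, and was at 285, 186 and 184 CPM in saline and 216, 129.9 and 159 CPM in yoked, with a log2 fold change of −0.38 ± 0.15 (SE). Pcp4, which binds calmodulin, was at 34.9, 17.7 and 24.4 CPM in saline and 32.8, 15.3 and 12.9 CPM in yoked, where pair 3 had the widest gap (−0.41 ± 0.16, log2, SE). Fezf2, the factor that specifies subcerebral projection neurons, was at 147, 60.1 and 81.7 CPM in saline and 131, 56.1 and 61.6 CPM in yoked (−0.23 ± 0.13, log2, SE). Nefm, the medium neurofilament gene, was at 797, 407 and 418 CPM in saline and 821, 358 and 428 CPM in yoked, near equal between groups. Without the 3 libraries numbered 1 the median of the list was −0.13, and cocaine self-administration, compared with the same 3 saline libraries, gave −0.24.

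Genes of glia, which the tag does not mark, were mostly above saline. Of 14 astrocyte genes 13 were above and 10 were above in all 3 pairs, and of 14 microglia genes 13 and 7. All 10 oligodendrocyte precursor genes were above, 6 of them in all 3 pairs, whereas 11 of 13 oligodendrocyte genes were above with 3 in all 3 pairs. The background for a gain in all 3 pairs is 15.9%. Median log2 fold changes were 0.29 for astrocytes, 0.38 for microglia, 0.20 for precursors and 0.16 for oligodendrocytes. No member passed the adjusted threshold, and 5 astrocyte and 3 microglia genes had an unadjusted p under 0.05.

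Slc1a3, the glutamate transporter GLAST of astrocytes (chromosome 15, 8634124 to 8710764, minus strand), was at 26.8, 79.4 and 64.3 CPM in saline and 50.4, 107 and 78.6 CPM in yoked. Yoked was the higher in each pair, the saline library numbered 1 was the lowest of all, and the log2 fold change was 0.54 ± 0.13 (SE). The astrocyte receptor gene Gpr37l1 (chromosome 1, 135160234 to 135167681, minus strand), which had the smallest p of the genes named by p, was at 5.98, 19 and 14.9 CPM in saline and 13.3, 24.8 and 25.9 CPM in yoked (0.76 ± 0.16, log2, SE). Fgfr3, a fibroblast growth factor receptor gene, was at 3.93, 13.7 and 8.16 CPM in saline and 7.45, 15.9 and 14.9 CPM in yoked (0.65 ± 0.18, log2, SE). Kcnj10, which encodes the astrocyte potassium channel Kir4.1, was at 9.04, 37.9 and 34 CPM in saline and 18.9, 46.5 and 43.4 CPM in yoked, above saline in each pair (0.57 ± 0.16, log2, SE). Slc6a11, the GABA transporter GAT-3, was at 11.3, 34.3 and 28.6 CPM in saline and 19.8, 39.5 and 40.2 CPM in yoked (0.50 ± 0.13, log2, SE). Gja1, the main astrocyte gap junction gene, was at 19.5, 46.1 and 29.8 CPM in saline and 27.4, 48.9 and 41 CPM in yoked (0.34 ± 0.14, log2, SE). In each of these genes the groups overlapped, and the library numbered 1 was the lowest of both groups. Gpr37l1, Kcnj10 and Slc6a11, and Sdc4 and Fam107a below, are not members of the astrocyte list. They were chosen as higher genes of smallest p with yoked above saline in every pair, so the choice set their direction.

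Sdc4, a heparan sulfate proteoglycan gene, was at 2.36, 11.7 and 8.01 CPM in saline and 6.48, 15.7 and 12.2 CPM in yoked (0.80 ± 0.19, log2, SE), and Fam107a, an astrocyte-enriched gene, at 42.5, 193 and 167 CPM in saline and 77.1, 231 and 197 CPM in yoked (0.46 ± 0.14, log2, SE). Slc1a2, the glutamate transporter GLT-1, was at 608, 1904 and 2033 CPM in saline and 847, 2201 and 2309.6 CPM in yoked, with a log2 fold change of 0.30 ± 0.15 (SE). Csf1r, the receptor on which microglia depend for survival, was at 3.2, 4.51 and 2.11 CPM in saline and 4.46, 6.58 and 5.2 CPM in yoked, where yoked was above saline in each pair (0.74 ± 0.23, log2, SE). Cx3cr1, the microglial fractalkine receptor gene, was at 0.958, 6.5 and 5.23 CPM in saline and 2.18, 7.32 and 6.8 CPM in yoked (0.52 ± 0.22, log2, SE). Trem2 and Tyrobp, which encode a microglial lipid receptor and its signalling adaptor, had all yoked above all saline libraries, at 1.02 to 1.76 against 0.46 to 0.944 CPM and 1.4 to 1.89 against 0.536 to 1.39 CPM. These genes of few counts had log2 fold changes (SE) of 0.85 ± 0.38 and 0.72 ± 0.35. The myelin genes Mag (0.36 ± 0.18) and Mobp (0.25 ± 0.13) and the precursor gene Cspg4 (0.56 ± 0.27) are given as log2 fold changes with SE, and Mag was mixed between pairs.

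Summed over each list, astrocyte genes were at 1223, 2896 and 2925 CPM in saline and 1707, 3371 and 3263 CPM in yoked, and microglia genes at 21.7, 48.8 and 38.7 CPM in saline and 33.1, 57.9 and 45 CPM in yoked. Both sums were lowest in the libraries numbered 1, and within each pair yoked was higher. The gap was widest in pair 1, with pair medians of 0.47, 0.21 and 0.17 for astrocytes and 0.54, 0.32 and 0.26 for microglia, 0.38, 0.12 and 0.08 for precursors and 0.47, −0.03 and 0.10 for oligodendrocytes. Without the 3 libraries numbered 1 the medians were 0.19, 0.26, 0.12 and 0.05. In pooled RNA, more cells of a type and more RNA per cell cannot be told apart, and neither can more RNA from untagged cells carried through the purification. In all 3 pairs the astrocyte and microglia sums were above saline and the layer 5 sum below it. With no pair lacking this pattern, the pairs cannot show whether these sums vary together. The oligodendrocyte sum was below saline in pair 2 and the precursor sum in pair 3. The part of glial RNA in the layer 5 values was not tested. Cocaine self-administration gave medians of 0.22 for astrocytes and 0.37 for microglia against the same saline libraries.

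**Figure D2:**
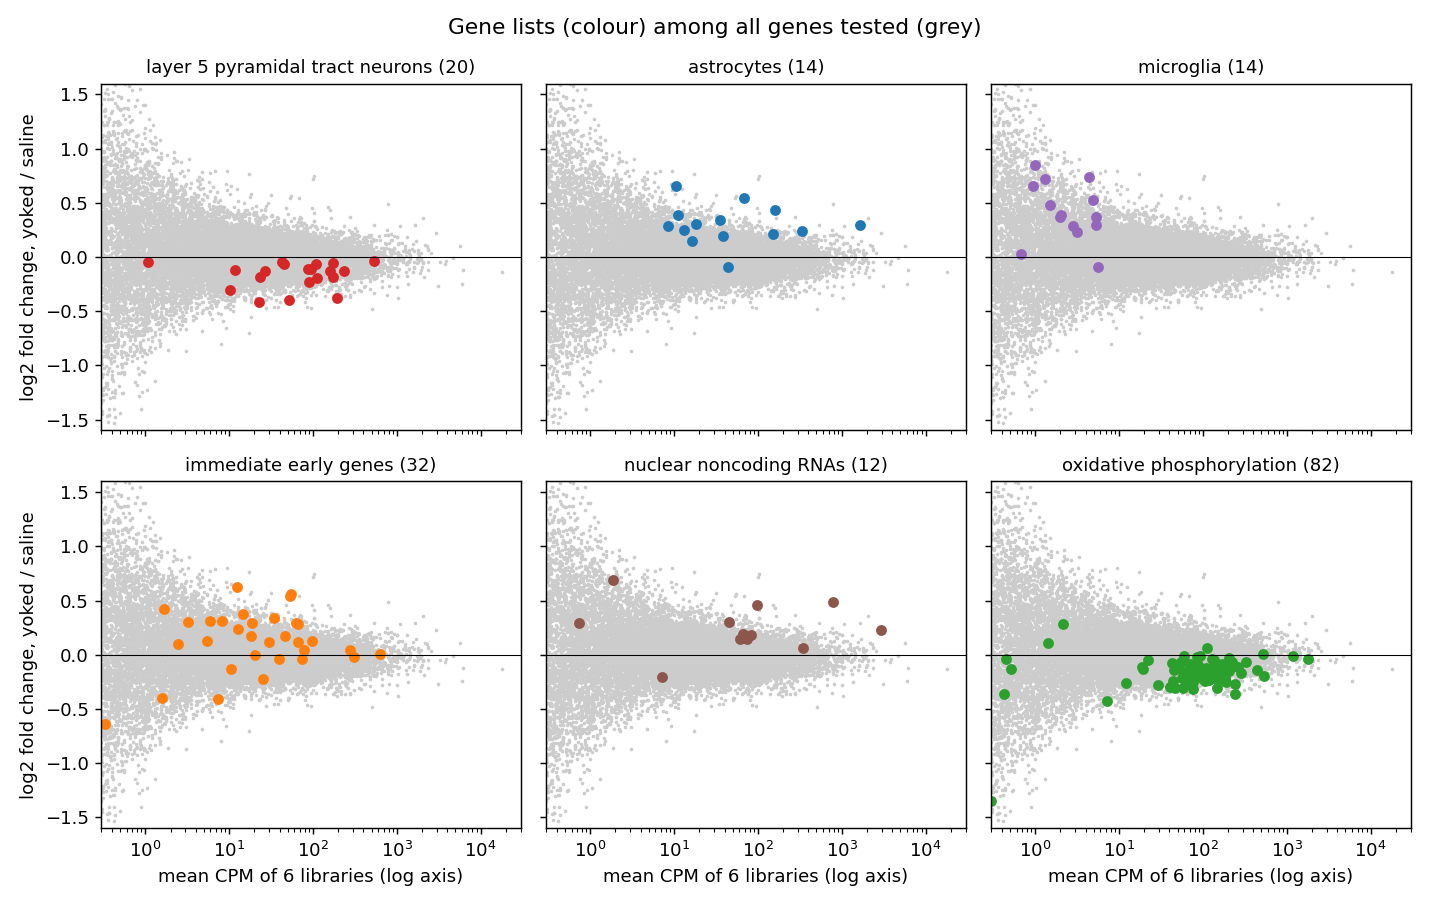
Log2 fold change, yoked over saline (vertical axis), against mean CPM of the 6 libraries (horizontal log axis) for 15606 of the genes tested (grey), with 1 gene list in colour in each panel and its number of members in the panel title. All 20 layer 5 points lie below 0 and 13 of 14 astrocyte and microglia points above it, inside the range of the grey points, and 811 genes, 2 of them list members, fall outside the axes.

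Among 16 interneuron genes 13 were above saline with a median of 0.15, and the pair medians of 0.39, 0.05 and −0.03 put this in pair 1, and the median was 0.01 without the libraries numbered 1. Lhx6, a transcription factor of interneurons from the medial ganglionic eminence, was at 5.34, 16.9 and 17.5 CPM in saline and 7.59, 23.2 and 20.6 CPM in yoked, above saline in each pair (0.40 ± 0.15, log2, SE). Markers of layers 2 to 4 had a median of 0.07, of layer 6 0.04, of striatal projection neurons 0.00 and of endothelial and mural cells 0.02. The striatal regulator gene Rgs9 was at 14.1, 91.1 and 82.8 CPM in saline and 21.6, 81.6 and 117 CPM in yoked, low in both libraries numbered 1 and overlapping between groups. Ttr, transthyretin of the choroid plexus, was at 21.1 CPM in saline replicate 2 and between 0.078 and 0.714 CPM in the other 5 libraries, and its log2 fold change of −3.45 became 0.66 without that library. Of the 4 red blood cell genes tested all were above saline (median 0.53), at summed levels of 1.38 to 4.80 CPM in saline and 2.89 to 6.63 CPM in yoked.

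Noncoding RNAs kept in the nucleus were mostly above saline, with 11 of 12 above, 6 of them in all 3 pairs (background 15.9%), and a median of 0.21. Meg3, an imprinted noncoding RNA (chromosome 12, 109541001 to 109571726, plus strand), was at 72.3, 912 and 979.9 CPM in saline and 101, 1184 and 1481 CPM in yoked. Yoked was higher in each pair, and the libraries numbered 1 stood far under the rest in both groups (0.49 ± 0.16, log2, SE). Malat1, a noncoding RNA of nuclear speckles, was at 215, 3548 and 4329 CPM in saline and 236, 4224 and 5309.9 CPM in yoked, with a log2 fold change of 0.23 ± 0.24 (SE), and Miat at 8.89, 106 and 112 CPM in saline and 8.45, 156 and 193 CPM in yoked (0.46 ± 0.18, log2, SE), where pair 1 was near equal. Firre, which is transcribed from the X chromosome, was at 0.996, 1.94 and 1.4 CPM in saline and 1.6, 2.73 and 2.61 CPM in yoked (0.69 ± 0.28, log2, SE). Rian, from the same imprinted region as Meg3, was at 29.2, 81.3 and 73.5 CPM in saline and 30.4, 86.1 and 97.1 CPM in yoked (0.19 ± 0.13, log2, SE). Pair medians of 0.10, 0.07 and 0.44 place most of the gap in pair 3, and without yoked replicate 3 the median was 0.01. The share of reads outside annotated genes was 13.4% in saline replicate 3 and 15.5% in yoked replicate 3, and its part in these values was not tested.

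Genes of oxidative phosphorylation, ribosomes and the proteasome were mostly below saline, whereas 13 of 19 glycolysis genes were above it (median 0.03). Of 82 subunit genes of oxidative phosphorylation 77 were below, of 78 cytosolic ribosomal protein genes 67, of 73 mitochondrial ribosomal protein genes 67 and of 38 proteasome subunit genes 35. Their median log2 fold changes were −0.16, −0.15, −0.13 and −0.09. Below saline in all 3 pairs were 15, 19, 19 and 16 members, against 13.6% of all genes. None passed the adjusted threshold, and the unadjusted p was under 0.05 for 4, 2, 3 and 0 members. The pair medians were −0.10, −0.01 and −0.18 for proteasome subunits, all below 0. They did not share a direction for the other lists, at −0.17, 0.06 and −0.35 for oxidative phosphorylation, −0.09, 0.06 and −0.37 for cytosolic and −0.16, 0.08 and −0.26 for mitochondrial ribosomal proteins, where pair 2 lay above 0 and pair 3 lowest.

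Cox6c, a subunit of cytochrome c oxidase (chromosome 15, 35925886 to 35938246, minus strand), was at 429, 217 and 185 CPM in saline and 286, 167 and 166 CPM in yoked. Yoked was lower in each pair, by −0.36 ± 0.15 (log2, SE), and the libraries numbered 1 were the highest of each group. Ndufc2, a subunit of complex I, was at 243, 121 and 124 CPM in saline and 184, 108 and 97.4 CPM in yoked (−0.30 ± 0.12, log2, SE) and Uqcrb, of complex III, at 66.4, 38.2 and 30.6 CPM in saline and 45, 31.5 and 29.5 CPM in yoked (−0.30 ± 0.12, log2, SE). Ndufa1, also of complex I, was at 96.4, 44.2 and 50.9 CPM in saline and 74.9, 38.4 and 40.2 CPM in yoked (−0.30 ± 0.14, log2, SE). Cox17, the gene that passed in the 6-library fit (chromosome 16, 38346991 to 38352763, plus strand), was at 141, 81.9 and 75.9 CPM in saline and 98.8, 57.2 and 59 CPM in yoked, lower in yoked in each pair. Atp5b, the catalytic subunit of ATP synthase, was at 2777, 1183 and 1425 CPM in saline and 2811, 1233 and 1235 CPM in yoked, near equal in the fit (−0.04 ± 0.12, log2, SE). Mrpl50, a mitochondrial ribosomal protein gene, was at 135, 102 and 85.8 CPM in saline and 93.4, 78.2 and 78 CPM in yoked (−0.35 ± 0.12, log2, SE), and Rpl15, of the large cytosolic subunit, at 218, 119.7 and 139 CPM in saline and 126, 99.3 and 136 CPM in yoked, where pair 3 was near equal (−0.36 ± 0.14, log2, SE). Rps4l, a ribosomal protein gene of the small subunit family, was at 12.5, 10 and 10.6 CPM in saline and 10.2, 8.01 and 3.89 CPM in yoked (−0.66 ± 0.23, log2, SE). Rpl15 and other ribosomal protein genes have processed copies in the genome, so their levels are uncertain. Alignments that were not unique formed a special entry outside the gene counts. It held 40.6, 35.6 and 39.6% of all counts in saline and 38.4, 36.6 and 37.5% in yoked.

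Leaving out all libraries numbered 3 brought the medians to −0.03 for oxidative phosphorylation, −0.00 for cytosolic and −0.04 for mitochondrial ribosomal proteins. With each library's trend on transcript length taken out the 3 medians were −0.09, −0.09 and −0.10. Cocaine self-administration stood on the other side of the same saline libraries, with medians of 0.29, 0.31 and 0.30 and 0.30 for proteasome subunits. The gap lay mainly in the libraries numbered 1. Oxidative phosphorylation genes summed to 29367, 10913 and 11438 CPM in cocaine against 18436, 9984 and 11201 CPM in saline. Cytosolic ribosomal protein genes summed to 4520, 2014 and 2099.5 CPM against 2692, 1908 and 2164 CPM, with cocaine below saline in number 3. Cocaine over yoked gave 0.44, 0.46, 0.43 and 0.39, beside −0.52 for nuclear noncoding RNAs. That contrast called 0 genes higher (0%) and 0 lower (0%) of 16417 in edgeR, with 3006 at an unadjusted p under 0.05, a smallest adjusted p of 0.13 and cocaine on lane 2. The contrasts share libraries, so their values stand side by side and are not independent. Chaperone genes of the heat shock response were below saline in 18 of 22 cases (median −0.07), and St13, a partner of Hsp70 chaperones, was at 112, 94 and 104 CPM in saline and 106, 82.6 and 88.7 CPM in yoked (−0.16 ± 0.11, log2, SE).

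Potassium and HCN channel genes were above saline in 27 of 38 cases, 16 of them in all 3 pairs (background 15.9%), with a median of 0.10. The median was 0.02 without yoked replicate 1 and 0.04 without saline replicate 2. Kcnt1, a sodium-activated potassium channel gene, was at 21.6, 20.3 and 19.7 CPM in saline and 29.6, 22.8 and 25.2 CPM in yoked, and Kcnk1, a background potassium channel gene, at 61.2, 58 and 55.5 CPM in saline and 76.8, 68 and 67.5 CPM in yoked. All 3 yoked libraries were above all 3 saline libraries for both, with log2 fold changes of 0.32 ± 0.13 and 0.28 ± 0.11 (SE). Sodium and calcium channel genes were above saline in 18 of 24 cases (median 0.06), led by Cacna1e, the R-type calcium channel, at 194, 262 and 284 CPM in saline and 251, 295 and 324 CPM in yoked (0.25 ± 0.13, log2, SE). The median of synaptic vesicle genes was 0.05, of AMPA receptor genes −0.01, of NMDA receptor genes −0.00, of GABA receptor genes 0.00 and of postsynaptic scaffold genes 0.01. Gria2, the AMPA subunit that limits calcium entry, was at 817, 467 and 484 CPM in saline and 790.5, 443 and 505 CPM in yoked, and Grin2a, an NMDA subunit gene, at 30.9, 40.1 and 48.2 CPM in saline and 32.3, 50.4 and 50.6 CPM in yoked, with log2 fold changes of −0.02 ± 0.12 and 0.15 ± 0.14 (SE). Grik3, a kainate receptor subunit gene, was at 46.5, 113 and 117 CPM in saline and 62.7, 132 and 148 CPM in yoked, above saline in each pair (0.34 ± 0.12, log2, SE).

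Genes through which drugs of abuse and stress are known to act had list medians from 0.02 to 0.09 above saline. They were 0.09 for monoamine receptors, 0.09 for opioid and endocannabinoid signalling, 0.09 for neuropeptides and granule proteins, 0.02 for cyclic AMP and calmodulin kinase signalling, 0.07 for glucocorticoid response genes and 0.07 for clock genes. Only the opioid and endocannabinoid list had all 3 pair medians above 0 (0.14, 0.07 and 0.05). The pair medians were −0.04, 0.05 and −0.08 for glucocorticoid response genes and 0.17, 0.06 and −0.07 for neuropeptides. Pair 2 lay below 0 for monoamine receptors (−0.02), cyclic AMP signalling (−0.03) and clock genes (−0.02). Oprd1, the delta opioid receptor gene, was at 8.26, 22.7 and 24 CPM in saline and 10, 26 and 37.6 CPM in yoked. Yoked was higher in each pair, most in pair 3 (0.38 ± 0.16, log2, SE). Fkbp5, a chaperone gene induced by glucocorticoids, was at 36.9, 37.8 and 34.3 CPM in saline and 30.4, 30.7 and 33.3 CPM in yoked, with all yoked libraries below all saline libraries (−0.21 ± 0.12, log2, SE). Per3, a clock gene, was at 12.3, 38.7 and 33.2 CPM in saline and 18.1, 39.8 and 41.2 CPM in yoked (0.31 ± 0.14, log2, SE). The median of genes of cholesterol synthesis and uptake was 0.09. Gap43, a growth cone protein gene, was at 745, 400.4 and 422 CPM in saline and 593, 348 and 332 CPM in yoked, below saline in each pair (−0.29 ± 0.12, log2, SE), in a cytoskeleton list of which 20 of 25 genes were below (median −0.08).

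Genes outside these lists were named by the smallest p among genes of at least 5 CPM whose 3 pairs shared a direction. Ppp3cb, the catalytic beta subunit gene of the calcium-dependent phosphatase calcineurin (chromosome 14, 20499364 to 20546573, minus strand), was at 370.4, 282 and 295 CPM in saline and 281, 204 and 252 CPM in yoked. All 3 yoked libraries of Ppp3cb were below all 3 saline libraries, by a narrow margin, and its log2 fold change was −0.36 ± 0.12 (SE). The groups overlapped in the other genes so named. How often groups separate over all genes tested was not counted, so separation is a description here and for the genes above. Nexn, an actin-binding protein gene, was at 13.1, 28.6 and 24 CPM in saline and 10.5, 11.6 and 16.7 CPM in yoked, where pair 2 had the widest gap (−0.70 ± 0.19, log2, SE). Below saline were also Gtf2h2 of the transcription factor TFIIH (−0.46 ± 0.13), Med10 of Mediator (−0.47 ± 0.15), Snrpd3 of the spliceosome (−0.55 ± 0.18), Srp19 of the signal recognition particle (−0.47 ± 0.14), Bccip (−0.41 ± 0.12), Tceal1 (−0.41 ± 0.13), Rwdd3 (−0.50 ± 0.15) and the small nucleolar RNA host gene Snhg3 (−0.53 ± 0.18), all in log2 with SE. Above saline were Ext2, which builds heparan sulfate chains, at 16.9, 12.3 and 12.9 CPM in saline and 28.1, 18.5 and 16.5 CPM in yoked (0.56 ± 0.15, log2, SE), with Ptar1 (0.47 ± 0.14) and Fam107b (0.69 ± 0.20). None of them passed the adjusted threshold in the 9-library fit.

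**Figure D3:**
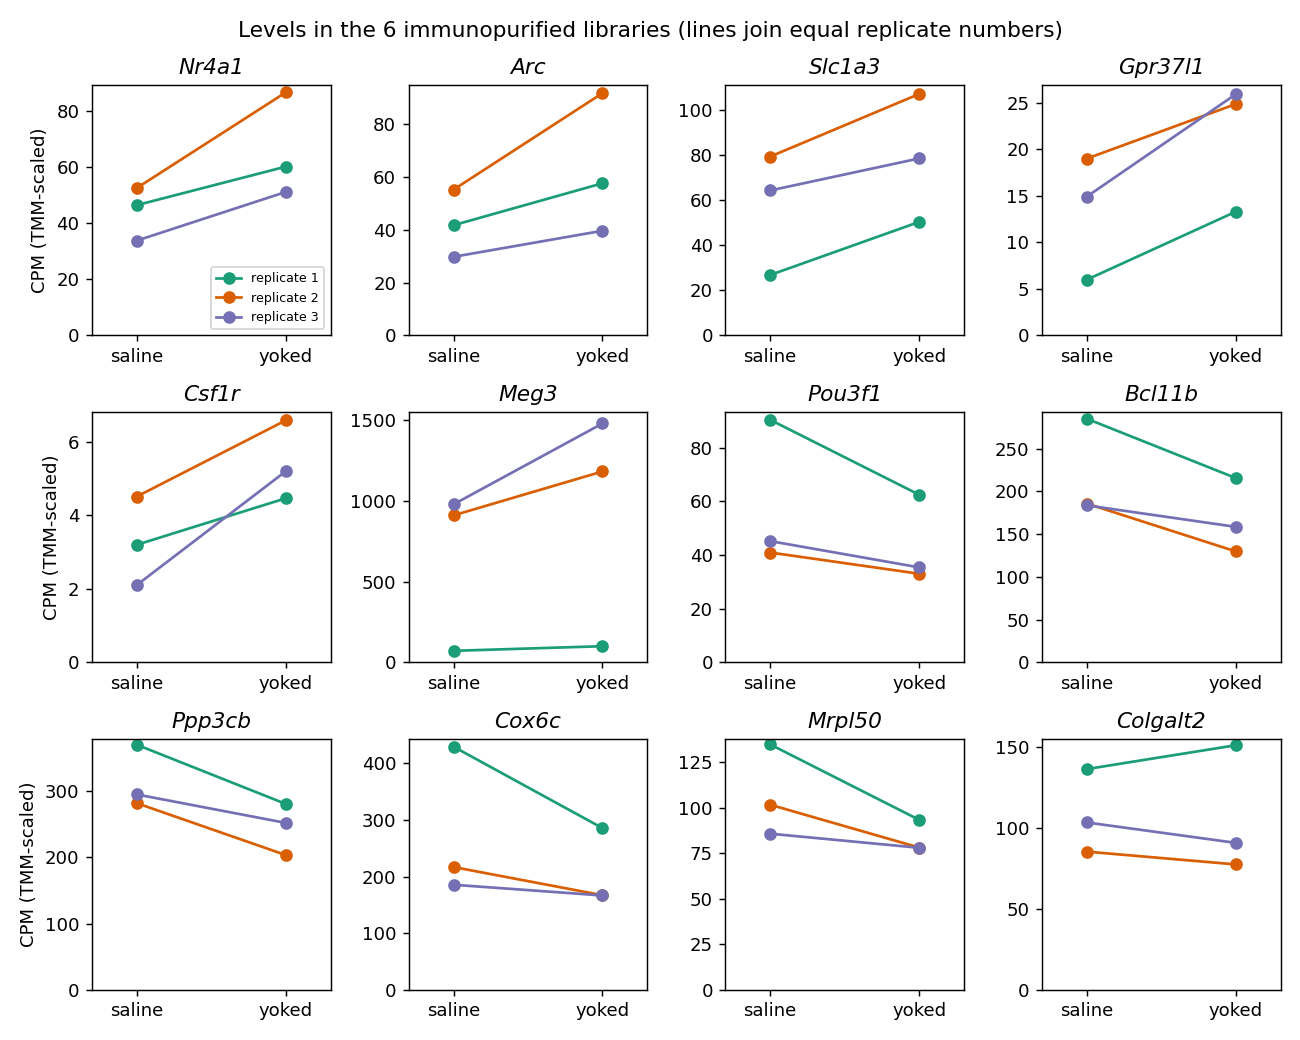
Level of 12 genes in CPM (vertical axes, each from 0) in the saline and yoked libraries, with lines joining libraries of equal replicate number. Nr4a1, Arc, Slc1a3, Gpr37l1, Csf1r and Meg3 are higher and Pou3f1, Bcl11b, Ppp3cb, Cox6c and Mrpl50 lower in yoked on all 3 lines, while Colgalt2 is mixed, and Meg3 lies far lower in replicate 1 of both groups.

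**Figure D4:**
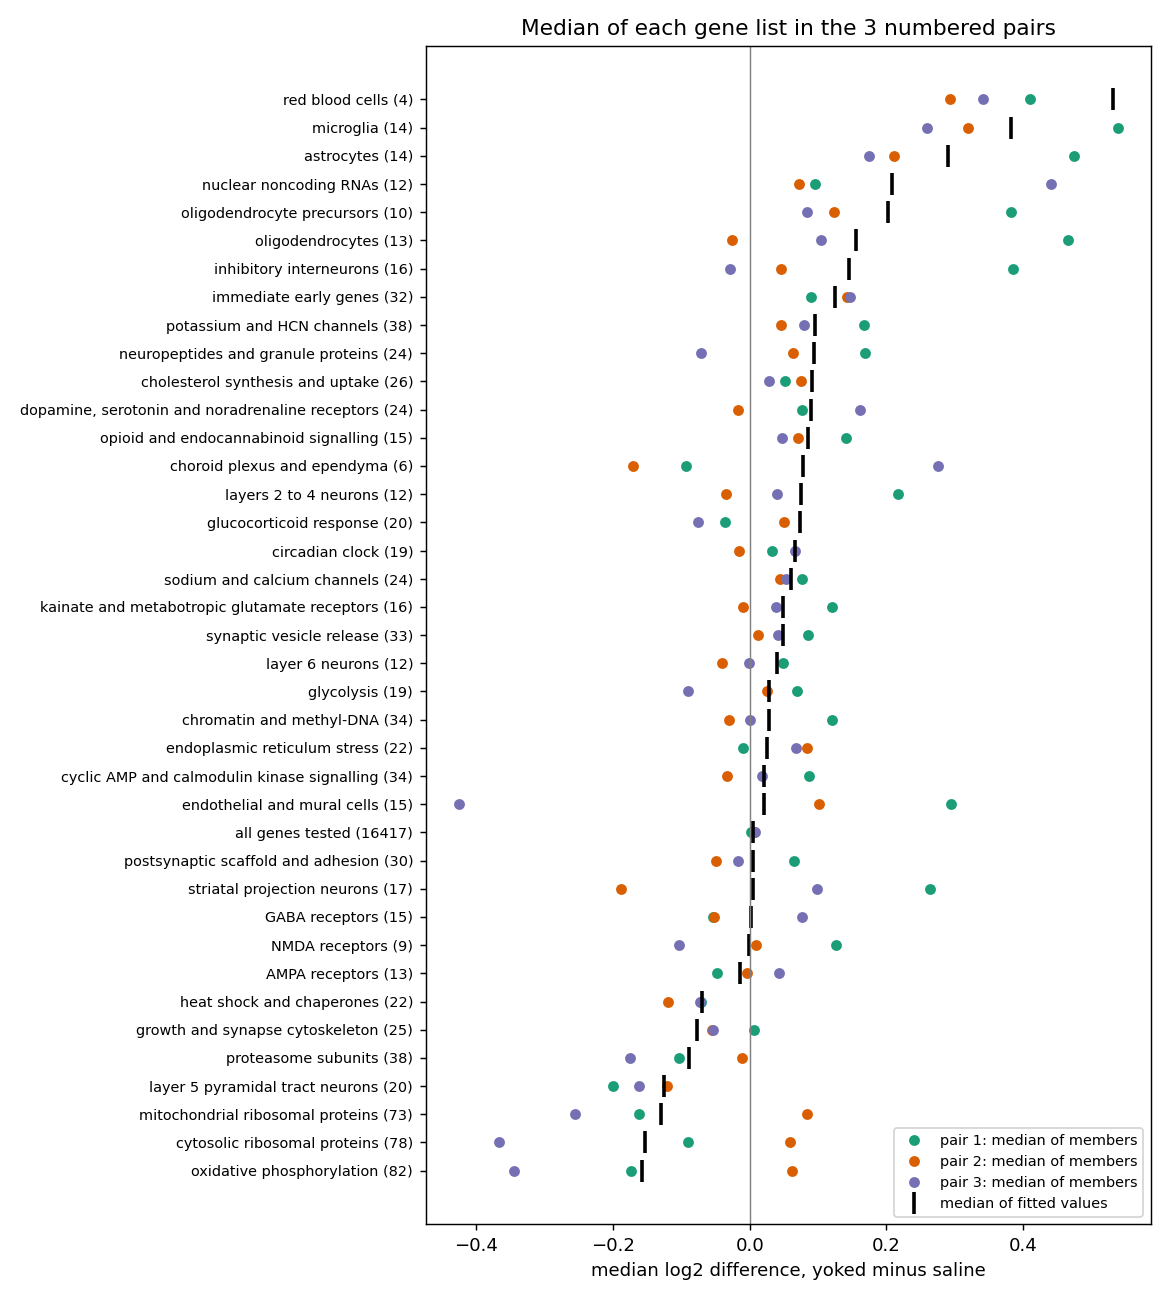
Median log2 difference, yoked minus saline (horizontal axis), of each gene list with the number of its members tested: coloured points are the medians in the 3 numbered pairs and black bars the medians of the fitted values. All 3 pair medians of astrocytes, microglia and immediate early genes lie above 0 and all 3 of layer 5 genes below it, whereas pair 2 lies opposite to pairs 1 and 3 for oxidative phosphorylation and both ribosomal protein lists.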

How the data were processed

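Each deposited file lists the raw count of reads for every gene symbol in a library. The submitters' processing notes name STAR 2.0.0e, HTSeq and the mm10 build. The HTSeq version, annotation and strand setting are not stated there, so antisense and overlapping genes may share counts. The 6 special entries of each file were left out. The 9 immunopurified libraries were fitted in edgeR 4.0.16 (R 4.3.3, limma 3.58.1) with TMM scaling, filterByExpr, robust quasi-likelihood dispersion, group and replicate number, which left 4 residual degrees of freedom. Benjamini-Hochberg adjustment covered 16417 genes, with a threshold of 0.05. The rule of the comparison set replicate number as a block, and the numbered pairs follow it. Deviations of equal numbers correlated in every pair (r from 0.48 to 0.79), but numbers 2 and 3 also correlated across pairs (r = 0.46 and 0.52). These correlations thus cannot show whether numbers 2 and 3 are rightly paired. Pair values are log2 ratios of CPM with 0.5 added. DESeq2 1.42.0, no block, the 6 libraries alone, other scalings, filters and length offsets, and leaving out libraries were alternatives. The script was tested on simulated data. Genes were named as Colgalt2, the 12 higher and 12 lower genes of smallest p with at least 5 CPM and 3 pairs alike, and up to 4 members of each of 38 lists by p plus the member of highest CPM, in that order. Cox17, Fos and Npas4 were chosen outside that rule, and Tbr1, Gria2 and Arpp21 out of its order, after values were seen, and some genes that the rule names are not reported here. Lists and members were chosen with earlier results of these data known. Positions come from GENCODE M21 (GRCm38) and promoters from RefSeq (GRCm38.p6). Counts include PCR copies, and at these depths the spread between libraries sets the precision of genes with many counts.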

Additional observations from a re-analysis of the deposited data

How the results depend on the processing

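Pairing by replicate number moved no call: without the replicate block edgeR called 0 genes higher and 0 lower, with 66 at an unadjusted p under 0.05 against 493 with it. Of the alternatives that kept all 9 libraries, the one without a filter on low counts called 1 gene higher, Gpr37l1 (adjusted p = 0.03338), and the others 0, with between 66 and 756 genes at an unadjusted p under 0.05. Leaving out libraries from the 9 gave 0 calls each time, with a smallest adjusted p of 0.08751 without yoked replicate 2. Among these leave-outs from the 9, the fit without cocaine replicate 1 had the most genes at an unadjusted p under 0.05 in edgeR, 1032. The fit to the 6 libraries called 4 higher and 1 lower. Its leave-one-out fits, added after seeing the data, called 0 to 89 higher and 1 to 239 lower, most without saline or yoked replicate 3 or both. Of 70 genes followed over 30 alternatives 62 kept 1 sign. Many of the 70 were chosen for a small p or for 3 pairs alike, and the alternatives reuse the same libraries. The choice thus favoured a kept sign, and the count is a description. The log2 fold change of Egr1 was −0.0086 without the block, −0.0016 among genes with a known length (an alternative also added after seeing the data) and −0.0094 with the length trend removed. Leaving out libraries moved the log2 fold change from −0.13 to 0.12 for Egr1, −0.17 to 0.046 for Colgalt2, −0.23 to 0.089 for Nefm, −0.023 to 0.42 for Malat1, −0.13 to 0.041 for Atp5b, −0.066 to 0.025 for Gria2, −0.023 to 0.23 for Grin2a and −4.55 to 0.66 for Ttr. The cause of these shifts was not tested. The list of red blood cell genes had no member at 5 CPM and so no value under that filter. Over the same alternatives list medians ranged from 0.081 to 0.22 for immediate early genes, −0.22 to −0.11 for layer 5, 0.18 to 0.38 for astrocytes, 0.25 to 0.60 for microglia, 0.014 to 0.39 for nuclear noncoding RNAs, 0.015 to 0.13 for potassium channels, −0.34 to −0.0049 for oxidative phosphorylation, −0.34 to 0.028 for cytosolic and −0.30 to −0.026 for mitochondrial ribosomal proteins and −0.21 to −0.025 for proteasome subunits.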
